A study of Rattus norvegicus with 12 samples.

Results

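The sphingolipid enzymes described here are 9 genes that make, modify or break down ceramide and its products, namely Degs1, Fa2h, Ugcg, Sgms1, Sgms2, Smpd1, Smpd3, Asah1 and Sphk1. They were chosen by gene symbol from 14300 genes measured on 12 Affymetrix Rat Gene 1.0 ST arrays, and all 9 were represented by a single transcript cluster, which is the set of probes that the array assigns to one gene. The arrays held RNA from the superficial zone (SZ) and the intermediate/deep zone (IDZ) of the articular cartilage, and from the growth plate, where the resting zone (RZ) was taken, with 4 arrays per zone. All tissue was dissected by hand from eosin-stained sections of the proximal tibial epiphysis of 10-day-old Sprague-Dawley rats, and no genetic change or treatment distinguished the zones.

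Each SZ sample held both tibias of 1 animal, whereas each IDZ and RZ sample pooled the tibias of 2 animals. The same 2 animals gave the IDZ and the RZ sample of each number, and 4 of the 8 animals also gave the SZ samples. A layer below SZ was discarded during dissection, and the intermediate and deep zones were collected as one. As the samples are bulk tissue, fewer cells of a type and less RNA per cell cannot be told apart. Levels are deposited log2 values, so that a difference of 1 is 2-fold. Because probes differ in brightness, each gene was compared only with itself across zones.

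Sphingolipids are membrane lipids built on a sphingoid base, and ceramide stands at the centre of their metabolism. It is made in the endoplasmic reticulum, converted to sphingomyelin or to glycosphingolipids, and released again by sphingomyelinases. Ceramidases cleave it to sphingosine, which kinases turn into the signaling lipid sphingosine 1-phosphate. In the skeleton the pathway is best known through neutral sphingomyelinase 2, encoded by Smpd3, since mice that lack it have short, poorly mineralized bones, and through sphingomyelin synthase 2, encoded by Sgms2, since mutations in the human gene cause bone fragility.

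Cartilage markers were high in every zone, with means of 7 chondrocyte genes (among them Col2a1 and Acan) between 11.82 and 12.11 on the log2 scale in SZ, between 12.81 and 12.89 in IDZ and between 12.80 and 12.99 in RZ. Prg4, the lubricin gene that marks the joint surface, fell between 12.53 and 12.97 in SZ, 8.86 and 10.95 in IDZ and 5.24 and 6.40 in RZ. SZ replicate 4 stood apart from the other SZ arrays, with an interquartile range of 2.24 over all clusters against 2.72 to 2.91. It gave the lowest of the SZ values for 83.0% of genes at or above the median SZ level but the highest for 63.2% of genes below it, and it was lowest for 6 of the 9 enzymes and highest for 2, Fa2h and Sphk1, so values without it are given where they change a call.

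Zonal differences were large for Smpd3, Sgms2 and Fa2h. Smpd3 rose from SZ to IDZ and again to RZ, Sgms2 was lower in SZ than in both other zones, and Fa2h was higher in RZ than in both articular zones. Between SZ and IDZ, 4 of the 9 enzymes differed at an adjusted p under 0.05, with Sgms1 and Asah1 higher in SZ and Sgms2 and Smpd3 higher in IDZ, where 26.6% of all genes differed, 17.0% toward SZ and 9.56% toward IDZ. Sgms2 and Smpd3 also reached 2-fold, as 1.01% of all genes did in the direction of IDZ. Between IDZ and RZ, Fa2h and Smpd3 were higher in RZ, so that 2 of 9 differed against 8.8% of all genes, 3.22% toward IDZ and 5.58% toward RZ, and Fa2h reached 2-fold, as 0.524% of all genes did in the direction of RZ. Between SZ and RZ, 3 of 9 differed against 26.7% of all genes, 14.5% toward SZ and 12.2% toward RZ, and these 3, Fa2h, Sgms2 and Smpd3, were higher in RZ by 2-fold or more, as 1.75% of all genes were. Degs1, Ugcg, Smpd1 and Sphk1 passed no test between zones in the main fit. Among the alternative fits described below, Smpd1 passed between SZ and IDZ when the arrays were quantile normalized again. Sphk1 passed between IDZ and RZ with array quality weights. The median of the 9 differences was -0.04 for SZ minus IDZ, -0.08 for IDZ minus RZ and -0.13 for SZ minus RZ, against -0.03, 0.01 and -0.01 over all genes. The enzymes had been picked with results of these arrays known, so that these counts are descriptions, and any pair of the 3 comparisons shares the arrays of a zone.

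Sequence upstream of a gene is where its transcription is often controlled, and RefSeq starts on the GRCr8 assembly were available for 6 of the 9 enzymes. The 250 bases before the start are shown for Fa2h, which had the most uneven levels of these 6, and for the paralogs Sgms1 and Sgms2, whose zone patterns differed. They are printed 5′ to 3′ on the strand of the gene. Capitals mark matches, on either strand, to the GC box (GGGCGG), the CCAAT box (CCAAT), the TATA box (TATAAA), the RUNX core (TGTGGT) and the SOX core (ACAAAG).
Fa2h, chr19:56273481-56273730, minus strand: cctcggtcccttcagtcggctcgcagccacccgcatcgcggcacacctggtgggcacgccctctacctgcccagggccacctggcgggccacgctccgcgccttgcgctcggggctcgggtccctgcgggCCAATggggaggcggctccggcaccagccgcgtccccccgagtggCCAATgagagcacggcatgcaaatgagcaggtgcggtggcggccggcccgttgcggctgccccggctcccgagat
Sgms2, chr2:222590808-222591057, minus strand: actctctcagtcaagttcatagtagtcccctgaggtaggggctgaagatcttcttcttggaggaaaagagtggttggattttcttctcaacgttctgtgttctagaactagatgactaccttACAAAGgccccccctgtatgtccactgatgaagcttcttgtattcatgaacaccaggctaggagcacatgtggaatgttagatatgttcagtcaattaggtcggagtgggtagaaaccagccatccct
Sgms1, chr1:239672894-239673143, minus strand: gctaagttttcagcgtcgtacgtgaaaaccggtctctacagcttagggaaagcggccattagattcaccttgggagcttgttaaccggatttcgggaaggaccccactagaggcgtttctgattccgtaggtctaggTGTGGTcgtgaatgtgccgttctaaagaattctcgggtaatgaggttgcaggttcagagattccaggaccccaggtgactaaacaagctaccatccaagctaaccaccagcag

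The Fa2h sequence was 74.4% G and C with 28 CpG dinucleotides, the Sgms1 sequence 50.4% with 12 and the Sgms2 sequence 45.6% with 2, against medians of 51.2% and 5 over 33469 rat promoters. Fa2h held 2 CCAAT boxes, a match present in 34.0% of all promoters of this length. Sgms2 held 1 SOX core, present in 16.3% of all promoters, and Sgms1 held 1 RUNX core, present in 14.5%. None of the 3 sequences held a GC box or a TATA box, present in 30.5% and 12.9%. A match of letters is a description and not a binding site.

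**Figure D1:**
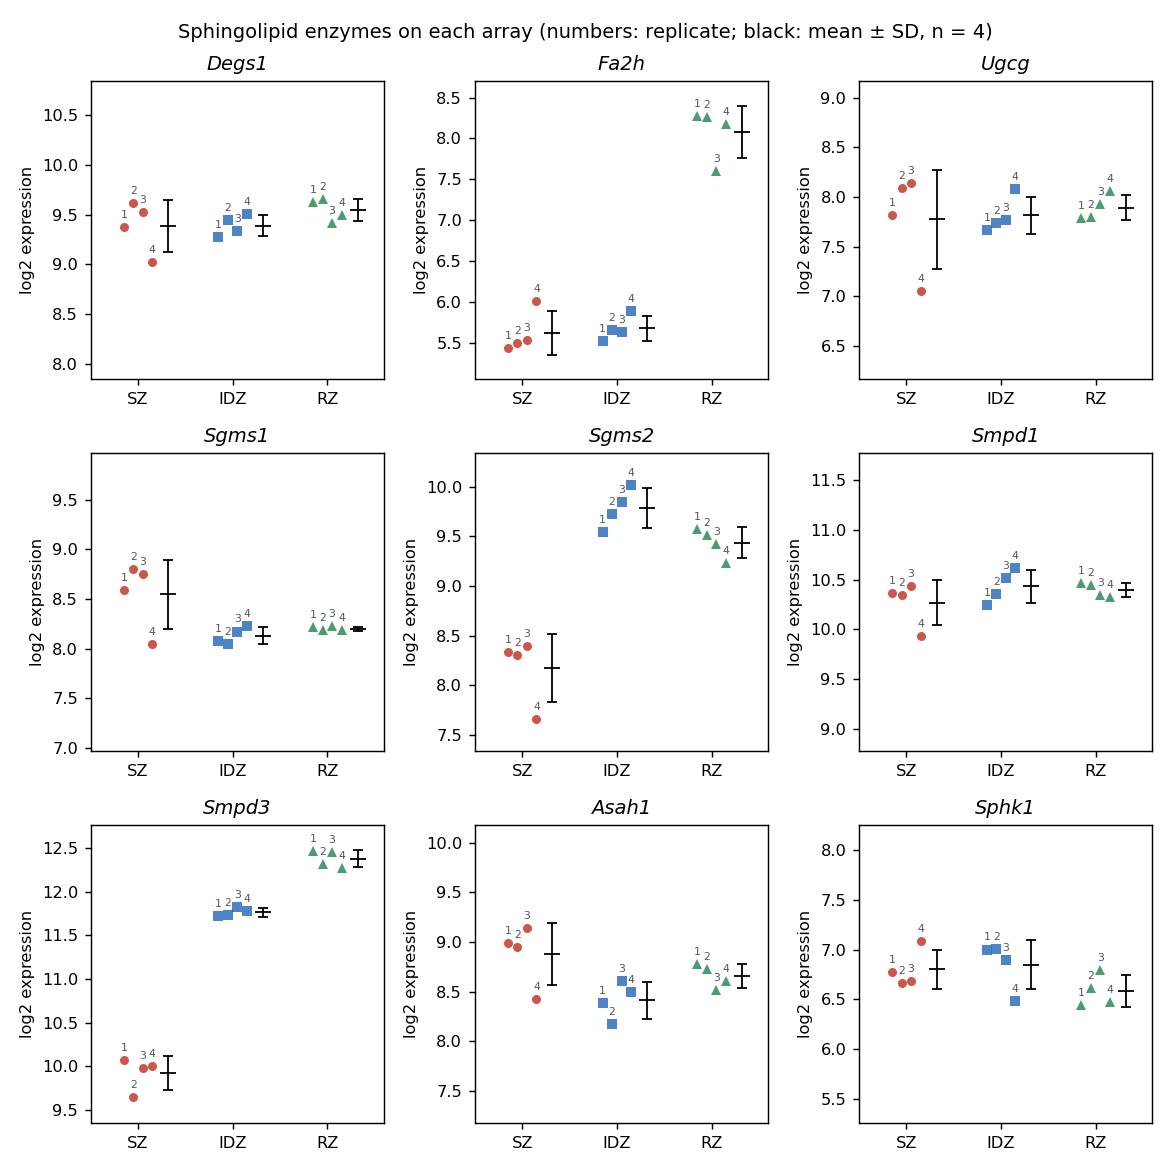
Log2 expression (y axis of each panel) of the 9 sphingolipid enzymes in SZ (circles, red), IDZ (squares, blue) and RZ (triangles, green), 4 arrays each, with the replicate number above each point and the zone mean ± SD in black. Smpd3 forms 3 separate groups between 9.64 and 12.46, Fa2h lies between 7.60 and 8.28 in RZ and at 6.02 or less elsewhere, and Sgms2 lies at 8.40 or less in SZ and at 9.23 or more elsewhere.

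Ceramide is completed by Degs1, which encodes the desaturase of the last step of its synthesis. Degs1 measured 9.37, 9.61, 9.52 and 9.03 on SZ replicates 1 to 4, 9.27, 9.45, 9.34 and 9.50 on the IDZ arrays and 9.63, 9.66, 9.41 and 9.49 on the RZ arrays. The groups overlapped throughout, with zone means of 9.38 ± 0.26 in SZ, 9.39 ± 0.10 in IDZ and 9.55 ± 0.11 in RZ (SD, n = 4 arrays each). The 95% confidence intervals of its zone differences ran from -0.26 to 0.25 for SZ minus IDZ, from -0.41 to 0.10 for IDZ minus RZ and from -0.42 to 0.09 for SZ minus RZ, and thus held no 2-fold difference. SZ minus IDZ was -0.01, and 0.11 without SZ replicate 4, and passed in neither case.

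Fa2h encodes the hydroxylase that adds a hydroxyl group to fatty acids destined for ceramide, and its products are abundant in myelin and skin. It measured 5.44, 5.50, 5.54 and 6.02 on SZ replicates 1 to 4, 5.53, 5.66, 5.63 and 5.89 on the IDZ arrays and 8.28, 8.26, 7.60 and 8.18 on the RZ arrays. The RZ values lay above all articular values, whereas SZ and IDZ overlapped, and the SZ and IDZ means of 5.62 ± 0.27 and 5.68 ± 0.15 (SD, n = 4) were near the level of 5.57 below which the dimmest 25% of clusters lay. RZ, at 8.08 ± 0.32 (SD, n = 4), exceeded IDZ by 2.40 on the log2 scale, or 5.27-fold (standard error 0.16, limma adjusted p = 2.3e-07), and SZ by 2.45, or 5.48-fold (adjusted p = 2.1e-08). SZ replicates 1 to 3 and IDZ replicate 1 lay below that dim level, so the articular values were not shown to be above background and the size of both folds is uncertain. SZ and IDZ differed by 0.05 with an interval of SZ minus IDZ from -0.39 to 0.29. Within the 4 pairs of animals, RZ exceeded IDZ by 2.75, 2.60, 1.97 and 2.28.

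As Fa2h is known as a myelin gene, markers of Schwann cells and myelin were read beside it. Of 5 such genes measured, 1 was higher in RZ than in IDZ and 4 did not pass. The exception was Mag, a myelin glycoprotein gene, which stood between 7.77 and 8.33 in RZ against 6.62 to 7.02 in IDZ, a difference of 1.17 (standard error 0.14, adjusted p = 8.3e-05), and also exceeded SZ, by 1.30 (adjusted p = 4.8e-06). The myelin protein gene Mbp was at 6.49 to 6.73 in RZ and 6.74 to 6.86 in IDZ, and the glial transcription factor gene Sox10 at 7.30 to 7.33 and 7.33 to 7.51. The mean of the 5 genes was 6.48 to 6.67 in RZ, 6.37 to 6.52 in IDZ and 6.23 to 6.56 in SZ. Of 6 genes of hypertrophic chondrocytes and bone-forming cells, 2 were also higher in RZ than in IDZ and 4 did not pass. The 2 were the alkaline phosphatase gene Alpl, by 1.59, and the bone sialoprotein gene Ibsp, by 1.55. Ibsp averaged 8.03 in SZ, 6.94 in IDZ and 8.49 in RZ, whereas Mmp13 of the same list fell in this order, at 11.75, 9.46 and 8.72. Between SZ and RZ, 1 of the 6 was higher in SZ and 3 in RZ. The mean of the list ranged over 8.05 to 8.94 in RZ, 7.71 to 8.10 in IDZ and 7.89 to 8.66 in SZ. The part of these markers in the Fa2h result was not tested.

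Ugcg encodes glucosylceramide synthase, which opens the route from ceramide to the glycosphingolipids. It measured 7.82, 8.09, 8.15 and 7.06 on the SZ arrays, 7.67, 7.74, 7.77 and 8.08 on the IDZ arrays and 7.79, 7.80, 7.93 and 8.06 on the RZ arrays. SZ replicate 4 was the lowest of the 12 arrays, and the spread in SZ (SD 0.50) was the widest of the 9 enzymes in any zone. Its zone means were 7.78, 7.82 and 7.89, and the intervals ran from -0.44 to 0.37 for SZ minus IDZ, from -0.48 to 0.33 for IDZ minus RZ and from -0.52 to 0.29 for SZ minus RZ. The sign of both differences with SZ rested on SZ replicate 4: SZ minus IDZ was -0.04 with it and 0.20 without it, and SZ minus RZ was -0.12 and 0.12, none of which passed.

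Sphingomyelin is made from ceramide by 2 related enzymes, Sgms1 in the Golgi apparatus and Sgms2 mainly at the plasma membrane. Sgms2 measured 8.34, 8.31, 8.40 and 7.66 on SZ replicates 1 to 4, 9.54, 9.73, 9.84 and 10.02 on the IDZ arrays and 9.58, 9.52, 9.42 and 9.23 on the RZ arrays. All SZ values lay below all IDZ and RZ values, which overlapped. SZ was lower than IDZ by 1.61, or 3.05-fold (standard error 0.15, limma adjusted p = 2.0e-06), and lower than RZ by 1.26, or 2.40-fold (adjusted p = 1.8e-05), with zone means of 8.18 ± 0.35, 9.78 ± 0.20 and 9.44 ± 0.15 (SD, n = 4). Tested against a 2-fold difference with treat of limma, Sgms2 still passed between SZ and IDZ (adjusted p = 0.049) but not between SZ and RZ (adjusted p = 1). Against RZ, IDZ was 0.35 higher with an interval from 0.015 to 0.68, which did not pass (adjusted p = 0.23), although it did without SZ replicate 4 (adjusted p = 0.037). Within the pairs of animals RZ minus IDZ was 0.04, -0.21, -0.42 and -0.79.

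Sgms1 showed a much smaller difference, toward the other zone. It measured 8.59, 8.81, 8.75 and 8.04 on SZ replicates 1 to 4, 8.08, 8.05, 8.17 and 8.23 on the IDZ arrays and 8.22, 8.18, 8.22 and 8.19 on the RZ arrays. SZ replicates 1 to 3 lay above all IDZ and RZ values, whereas SZ replicate 4 was the lowest of the 12 arrays. SZ exceeded IDZ by 0.42, or 1.33-fold (standard error 0.14, limma adjusted p = 0.038), and by 0.58 without SZ replicate 4 (adjusted p = 4.8e-05). The call was lost with a fixed replicate block for the pair of animals (0.38, adjusted p = 0.17) and when any single array other than SZ replicate 4 or RZ replicate 3 was left out. SZ minus RZ was 0.35 and did not pass (adjusted p = 0.091), but passed at 0.51 without SZ replicate 4 (adjusted p = 0.00016). IDZ minus RZ had an interval from -0.36 to 0.22. Its width carries the spread in SZ (SD 0.35), which was wider than in IDZ (SD 0.08) and RZ (SD 0.02).

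**Figure D2:**
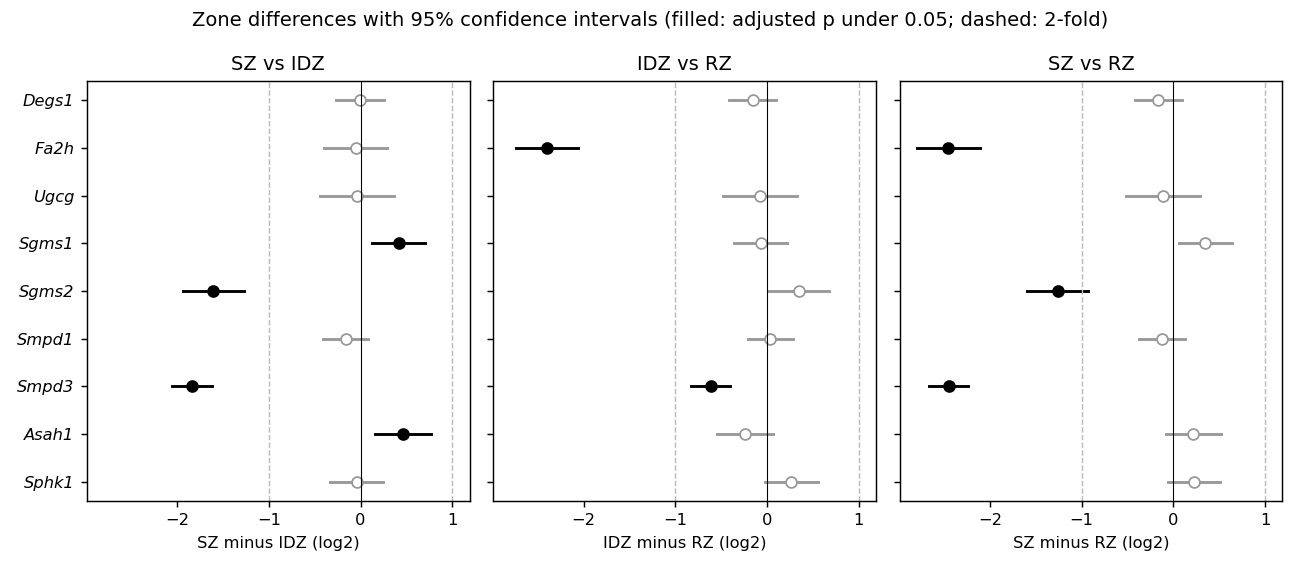
Differences between zones on the log2 scale (x axis, first minus second zone) for the 9 sphingolipid enzymes (y axis), with 95% confidence intervals from limma over all 12 arrays, filled where the adjusted p was under 0.05 and with dashed lines at 2-fold. Sgms2 and Smpd3 lie left of the 2-fold line against IDZ and RZ in the SZ panels, and Fa2h does so in both panels with RZ.

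Sphingomyelin is cut back to ceramide by sphingomyelinases. Smpd3, which encodes the neutral enzyme of the inner plasma membrane, was the one gene of the 9 whose 3 zones were all separate. It measured 10.07, 9.64, 9.98 and 10.01 on the SZ arrays, 11.72, 11.73, 11.83 and 11.77 on the IDZ arrays and 12.46, 12.31, 12.46 and 12.27 on the RZ arrays. The 3 groups did not overlap, and the order was SZ, IDZ, RZ. Separation of 2 zones was common, as 25.3% of all genes had no overlap between SZ and IDZ. The share was 24.3% between IDZ and RZ and 27.1% between SZ and RZ. IDZ exceeded SZ by 1.84, or 3.57-fold (standard error 0.10, limma adjusted p = 1.2e-08), and RZ exceeded SZ by 2.45, or 5.47-fold (adjusted p = 1.9e-10).

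The step of Smpd3 from IDZ to RZ was smaller, 0.61 or 1.53-fold (standard error 0.10, limma adjusted p = 0.0014), and was seen in every pair of animals, at 0.75, 0.58, 0.63 and 0.50. With the replicate block for pairs of animals it was also 0.61 (adjusted p = 0.011). Its spread within zones was the narrowest of the 9 enzymes in SZ (SD 0.19) and IDZ (SD 0.05). Unlike 6 of the other enzymes, Smpd3 was not lowest on SZ replicate 4 but on SZ replicate 2.

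Smpd1, which encodes the acid sphingomyelinase of lysosomes, did not follow Smpd3. It measured 10.37, 10.34, 10.43 and 9.93 on SZ replicates 1 to 4, 10.25, 10.35, 10.51 and 10.62 on the IDZ arrays and 10.46, 10.45, 10.35 and 10.32 on the RZ arrays. SZ replicate 4 was the lowest of the 12 arrays and the groups otherwise overlapped, with intervals from -0.41 to 0.09 for SZ minus IDZ, from -0.21 to 0.29 for IDZ minus RZ and from -0.38 to 0.12 for SZ minus RZ. The intervals of Smpd3 ran from -2.05 to -1.62, from -0.83 to -0.40 and from -2.67 to -2.24 in the same comparisons.

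Ceramide is broken down by Asah1, the acid ceramidase of lysosomes. Asah1 measured 8.99, 8.95, 9.14 and 8.42 on SZ replicates 1 to 4, 8.39, 8.17, 8.60 and 8.50 on the IDZ arrays and 8.78, 8.73, 8.52 and 8.60 on the RZ arrays. SZ replicates 1 to 3 lay above all IDZ and RZ values and SZ replicate 4 among those of IDZ. SZ exceeded IDZ by 0.46, or 1.38-fold (standard error 0.14, limma adjusted p = 0.029), by 0.61 without SZ replicate 4 (adjusted p = 0.0004), and by 0.44 with the replicate block, where the call was lost (adjusted p = 0.13). It was also lost without IDZ replicate 1 or 2 and without SZ replicate 1, 2 or 3. SZ minus RZ was 0.22 (adjusted p = 0.36), and 0.37 without SZ replicate 4, which passed (adjusted p = 0.017).

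Lysosomal enzymes are abundant in macrophages, and the 10 macrophage and myeloid markers measured were all higher in SZ than in IDZ, with a median difference of 2.19. They were also all higher in SZ than in RZ, by a median of 2.16, where Asah1 did not pass in the main fit. Between SZ and IDZ the lysosomal Smpd1 did not pass. Of 10 genes of lysosomal glycosphingolipid breakdown, 3 were higher in SZ, 1 was higher in IDZ and 6 did not pass (26.6% of all genes differed). The mean of the macrophage and myeloid markers ranged over 8.62 to 9.47 in SZ, 6.83 to 7.06 in IDZ and 6.57 to 7.23 in RZ. Among the SZ arrays it was lowest on replicate 4, as was Asah1. The same held for 83.0% of genes at or above the median SZ level, so this shared low does not link the markers to Asah1. All 5 endothelial markers and all 7 markers of fibrous tissue and tendon were also higher in SZ, by medians of 2.62 and 3.10. The part of these cells in the results for Asah1 and Sgms1 was not tested. In the other direction, 6 of 7 chondrocyte markers were lower in SZ than in IDZ, with a median of SZ minus IDZ of -0.88. Of these markers, 2 reached 2-fold, Matn3 (11.97 in SZ and 13.30 in IDZ) and Snorc (10.15 and 11.56). The difference was -1.61 for Sgms2 and -1.84 for Smpd3, and the part of the chondrocyte markers in these results was not tested either.

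Sphk1 encodes a kinase that makes sphingosine 1-phosphate. It measured 6.77, 6.66, 6.69 and 7.09 on the SZ arrays, 7.00, 7.01, 6.90 and 6.48 on the IDZ arrays and 6.44, 6.61, 6.79 and 6.47 on the RZ arrays. The groups overlapped, and SZ minus IDZ had an interval from -0.33 to 0.24. IDZ minus RZ was 0.27 with an interval from -0.02 to 0.55, and SZ minus RZ was 0.22 with an interval from -0.06 to 0.51, so that differences of 2-fold lay outside all 3.

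The genes whose zone pattern was most like that of the 3 enzymes were sought over all 12 arrays by the root mean square difference of log2 values, after the mean of each gene had been subtracted. Nearest to Smpd3 were Pth1r (0.15), the receptor gene for parathyroid hormone-related protein, which restrains chondrocyte maturation, then Shisa3 (0.17) and Flvcr2 (0.17). Pth1r averaged 8.83 in SZ, 10.55 in IDZ and 11.14 in RZ. Nearest to Sgms2 were the glycogen synthase gene Gys1 (0.19), which averaged 8.18, 9.60 and 9.43 in the same order, Entpd6 (0.20) and Enc1 (0.20). Nearest to Fa2h were the carboxypeptidase gene Cpa6 (0.29), at 5.60, 5.73 and 7.60, the neuronal pentraxin gene Nptx1 (0.31) and the adhesion receptor gene Adgrb1 (0.35). For comparison, the standard deviation over the 12 arrays was 1.09 for Smpd3, 0.75 for Sgms2 and 1.22 for Fa2h. Nearness of pattern is given as a description, as all these genes share the same arrays.

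The surrounding pathway was read from 6 lists that held 74 sphingolipid genes, 59 of which had a cluster of their own and 50 of which were not among the 9 enzymes. Of these 50, 18 were higher in SZ and 8 in IDZ (26.6% of all genes differed in either direction), 4 were higher in IDZ and 4 in RZ (8.8%), and 17 were higher in SZ and 7 in RZ (26.7%) in the 3 comparisons. Counts per list follow the same order, SZ with IDZ, IDZ with RZ and SZ with RZ. The 50 genes were not matched to other genes in level. Their median was 0.13 for SZ minus IDZ, -0.02 for IDZ minus RZ and 0.08 for SZ minus RZ, against -0.03, 0.01 and -0.01 over all genes.

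**Figure D3:**
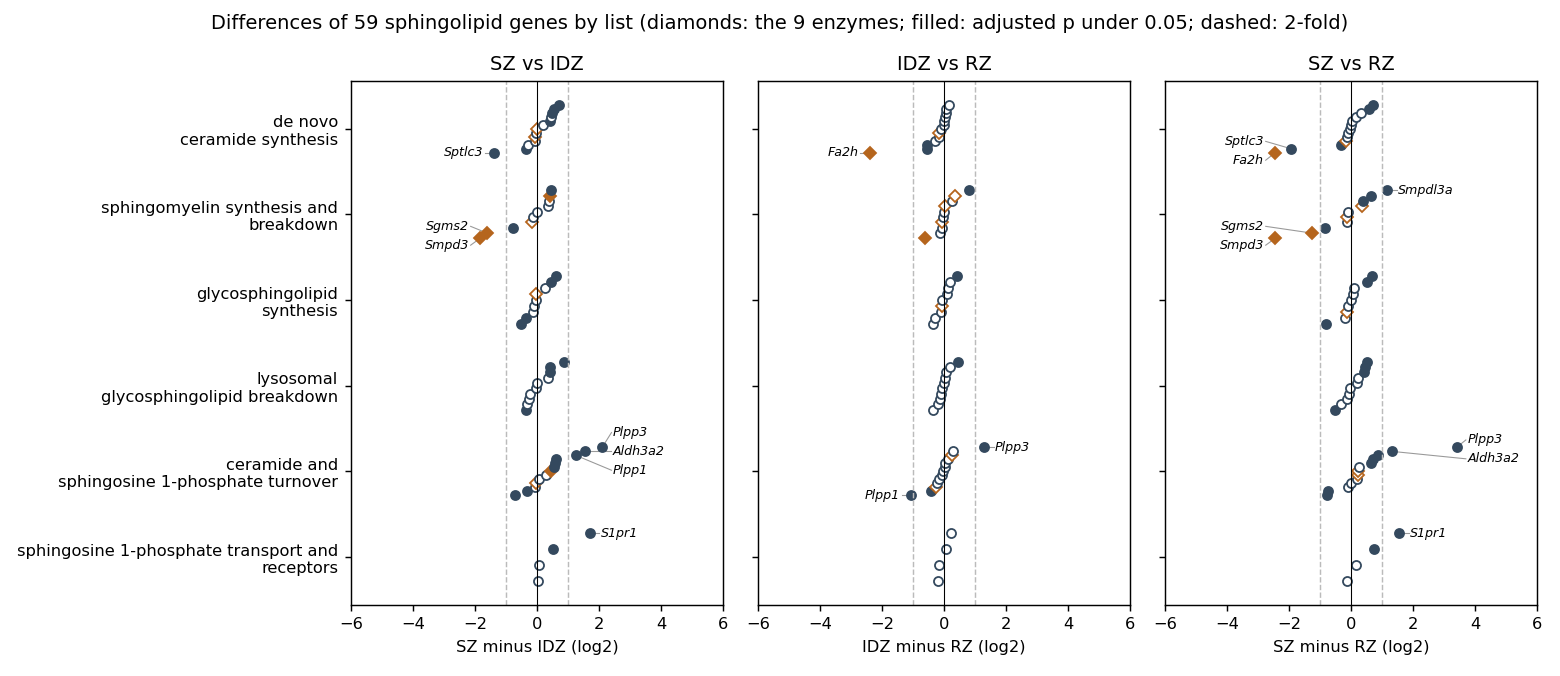
Differences between zones on the log2 scale (x axis, first minus second zone) for 59 sphingolipid genes in 6 lists (y axis), with diamonds for the 9 enzymes, circles for the other 50 genes, filled symbols for an adjusted p under 0.05 and names for those that also reached 2-fold. Plpp3 stands farthest to the SZ side, at 2.10 against IDZ and 3.40 against RZ, and Smpd3 and Fa2h stand farthest to the RZ side when SZ is compared with RZ, both at -2.45.

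In the list of ceramide synthesis (13 genes measured, Degs1 and Fa2h among them), 4 were higher in SZ and 2 in IDZ, none in IDZ and 3 in RZ, and 2 in SZ and 3 in RZ. Calls thus made up 46.2%, 23.1% and 38.5% of this list, against 26.6%, 8.8% and 26.7% of all genes. Sptlc3, a subunit of the serine palmitoyltransferase that begins the pathway, had the same order as Smpd3. It measured 7.97, 8.18, 8.65 and 8.00 in SZ, 9.51, 9.47, 9.62 and 9.75 in IDZ and 10.23, 9.90, 10.01 and 10.38 in RZ, without overlap between zones. IDZ exceeded SZ by 1.39 (standard error 0.15, limma adjusted p = 5.4e-06) and RZ exceeded IDZ by 0.54 (adjusted p = 0.038) and SZ by 1.93 (adjusted p = 1.1e-07). Opposite to Sptlc3, Kdsr, which encodes the reductase of the next step, was higher in SZ than in IDZ by 0.71 and than in RZ by 0.70, and the ceramide synthase gene Cers4 by 0.53 and 0.59. Ormdl2, a brake on the first enzyme, was 0.48 higher in SZ and 0.56 higher in RZ than in IDZ. Its relative Ormdl3 went the other way in SZ, lower by 0.37 than in IDZ (adjusted p = 0.0023) and by 0.33 than in RZ (adjusted p = 0.0049), without overlap.

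In the list of sphingomyelin metabolism (10 genes measured, with Sgms1, Sgms2, Smpd1 and Smpd3), 2 were higher in SZ and 3 in IDZ, 1 in IDZ and 1 in RZ, and 3 in SZ and 3 in RZ. Phospho1 encodes a phosphatase that releases phosphate from phosphocholine, a product of sphingomyelin cleavage, inside the matrix vesicles that begin mineralization. It measured 8.93, 8.41, 8.77 and 8.72 in SZ, 9.48, 9.50, 9.40 and 9.56 in IDZ and 9.77, 9.49, 9.54 and 9.33 in RZ. Like Sgms2, it was lower in SZ than in both other zones, by 0.78 against IDZ (standard error 0.12, limma adjusted p = 1.7e-04) and by 0.83 against RZ, and IDZ and RZ overlapped. Smpd2, another neutral sphingomyelinase gene, moved to the opposite side from Smpd3, at 0.45 higher in SZ than in IDZ and 0.37 higher than in RZ. Smpdl3a, which encodes an acid phosphodiesterase related to Smpd1, was lowest in RZ, 0.82 below IDZ and 1.16 below SZ, and the ceramide transfer protein gene Cert1 was 0.64 higher in SZ than in RZ.

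In the list of glycosphingolipid synthesis (9 genes measured, with Ugcg), 2 passed toward SZ and 2 toward IDZ, 1 toward IDZ and none toward RZ, and 2 toward SZ and 1 toward RZ, without any reaching 2-fold. Calls were 44.4%, 11.1% and 33.3% of the list, against 26.6%, 8.8% and 26.7% of all genes, so the share between IDZ and RZ was near that of all genes. B4galt5 and B4galt6, whose enzymes turn the product of Ugcg into lactosylceramide, were higher in SZ than in IDZ by 0.60 and 0.46, and than in RZ by 0.50 and 0.67. Past that step, the GM3 synthase gene St3gal5 was higher in IDZ than in SZ by 0.35 and than in RZ by 0.42, and the GD3 synthase gene St8sia1 was higher in IDZ than in SZ by 0.52 and higher in RZ than in SZ by 0.81. In the list of lysosomal breakdown (10 genes measured, none of the 9 enzymes), 3 were higher in SZ and 1 in IDZ, 1 in IDZ and none in RZ, and 3 in SZ and 1 in RZ. The galactosylceramidase gene Galc was 0.87 and the saposin precursor gene Psap 0.43 above IDZ in SZ, and the GM2 activator gene Gm2a 0.41, whereas the sialidase gene Neu3 was 0.34 higher in IDZ. Hexa, a subunit of hexosaminidase, was 0.44 higher in IDZ than in RZ, and the galactosidase gene Glb1 0.52 higher in RZ than in SZ.

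The 3 largest differences of the 50 genes between SZ and IDZ lay in the turnover and signaling of sphingosine 1-phosphate, the product of Sphk1. Of 13 turnover genes measured (Asah1 and Sphk1 among them), 7 were higher in SZ and 2 in IDZ, 1 in IDZ and 2 in RZ, and 5 in SZ and 2 in RZ. Together these were 69.2%, 23.1% and 53.8% of the list, against 26.6%, 8.8% and 26.7% of all genes. Plpp3 encodes a phosphatase of the cell surface that dephosphorylates sphingosine 1-phosphate and related lipids. It measured 11.11, 11.13, 11.03 and 10.63 in SZ, 8.97, 8.83, 8.92 and 8.77 in IDZ and 7.59, 7.75, 7.59 and 7.39 in RZ. Its order, without overlap, was the reverse of that of Smpd3, with SZ above IDZ by 2.10, or 4.29-fold (standard error 0.12, limma adjusted p = 1.4e-08), and IDZ above RZ by 1.30 (adjusted p = 5.1e-06).

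Its relative Plpp1 was low in IDZ alone, at 9.65 to 10.01 against 10.81 to 11.25 in SZ and 10.69 to 11.05 in RZ, and thus 1.26 below SZ and 1.06 below RZ. Plpp2 was highest in RZ, 0.43 above IDZ. Aldh3a2, the fatty aldehyde dehydrogenase gene that acts on the end product of sphingosine 1-phosphate cleavage, was higher in SZ than in IDZ by 1.56 (limma adjusted p = 1.6e-07) and than in RZ by 1.32. The ceramide kinase gene Cerk was 0.87 higher in SZ than in RZ, and the neutral ceramidase gene Asah2 was lower in SZ, by 0.69 against IDZ and 0.77 against RZ.

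Of 4 receptor genes measured, S1pr1 and S1pr2 were higher in SZ than in both other zones, and S1pr4 and S1pr5 did not pass. S1pr1, the receptor that is prominent on endothelium and lymphocytes, measured 9.02, 8.98, 8.62 and 8.57 in SZ, 7.23, 7.12, 7.02 and 6.98 in IDZ and 7.20, 7.41, 7.18 and 7.20 in RZ. SZ exceeded IDZ by 1.71, or 3.27-fold (standard error 0.12, limma adjusted p = 6.6e-08), and RZ by 1.55. S1pr2 was 0.53 above IDZ and 0.75 above RZ in SZ. The endothelial markers measured averaged 9.31 to 9.96 in SZ, 6.45 to 7.11 in IDZ and 6.18 to 6.6 in RZ, and their part in the S1pr1 and Plpp3 results was not tested.

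**Figure D4:**
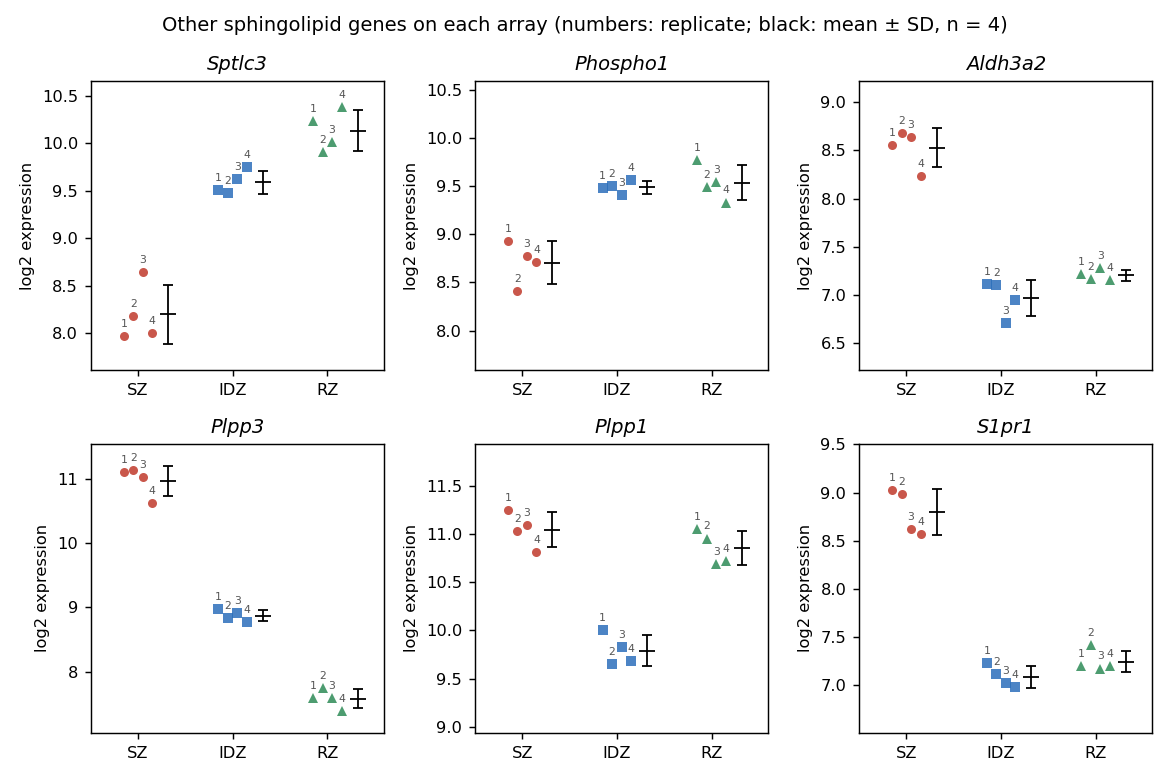
Log2 expression (y axis of each panel) of 6 other sphingolipid genes in SZ (circles, red), IDZ (squares, blue) and RZ (triangles, green), 4 arrays each, with the replicate number above each point and the zone mean ± SD in black. Plpp3 falls from 11.13 to 7.39 in the order SZ, IDZ, RZ, Sptlc3 runs the other way, Plpp1 is low in IDZ, and Aldh3a2 and S1pr1 are high in SZ.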

How the data were processed

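RNA of 12 samples was hybridised to Rat Gene 1.0 ST arrays, 1 sample per array. Per the study's methods and the submitters' processing notes, the authors processed the scans with Partek 6.6 and RMA, and the deposited values are log2 expression values of 27342 transcript clusters. RMA pulls the arrays toward a common distribution and compresses differences of dim clusters. The deposited arrays still differed in distribution, with interquartile ranges from 2.24 (SZ replicate 4) to 2.91 (SZ replicate 2). Genes were named from GEO's platform annotation, in which 15068 clusters had 1 gene symbol, 323 had several and 11951 had none. The brightest cluster stood for each of 14300 genes.

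The zones were compared with limma 3.58.1 in R 4.3.3 (lmFit and eBayes on all 12 arrays, 1 mean per zone), and p-values were adjusted over all clusters after Benjamini and Hochberg. Adjusted p in the text come from this fit unless another is named, calls are at an adjusted p under 0.05, and counts over genes use the cluster of each gene. Intervals are 95% and are not adjusted. Precision is limited by the number of arrays. In data simulated with 50 clusters shifted by 2-fold, 47 were called between SZ and IDZ, 48 between IDZ and RZ and 47 between SZ and RZ. At 1.5-fold, 30, 33 and 27 of 50 were called. Each simulation shifted 50 clusters at each of 1.5-, 2-, 3- and 4-fold and left 27142 unshifted. In the data, 6290 clusters were called between SZ and IDZ, 1840 between IDZ and RZ and 5773 between SZ and RZ. With so few shifted clusters the adjustment is stricter, so these rates do not carry over to the data.

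Samples were grouped by zone as labelled. IDZ and RZ samples of a number came from the same animals, and with the zone means subtracted the 4 pairs correlated at 0.02, 0.02, 0.03 and 0.21, so that a fit with these animals as a block was run as an alternative. The other alternatives were a random block, the 2 zones alone, other variance estimates, a test against 2-fold, a filter on dim clusters, other scalings, the mean cluster per gene, leaving out each array, and array quality weights, which were added after the data had been seen.

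All 9 enzymes were named. Of the other pathway genes, up to 4 per list and comparison that passed and differed most were named, and for each enzyme that reached 2-fold the 3 genes nearest in pattern. The enzymes and all lists were chosen with earlier results of these data known.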

Additional observations from a re-analysis of the deposited data

Results flagged for a closer look

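Of 27 groups of 4 arrays tested over the 9 enzymes and 3 zones, 3 had an array that stood apart by Dixon's criterion, and chance alone flags about 1 in 20 groups. Fa2h was highest in SZ on replicate 4, at 6.02 against 5.54 on the next array, a gap of 0.835 of the range of that zone. This array was the highest of the SZ arrays for 63.2% of genes below the median SZ level. Without this array SZ minus RZ was -2.58. Fa2h was lowest in RZ on replicate 3, at 7.60 against 8.18 on the next array, a gap of 0.85 of the range. Without it IDZ minus RZ was -2.56 and SZ minus RZ was -2.61. Sgms2 was lowest in SZ on replicate 4, at 7.66 against 8.31, a gap of 0.875 of the range, and without this array SZ minus IDZ was -1.43 and SZ minus RZ was -1.09.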

How the results depend on the processing

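Over 24 alternatives, 611 of 648 differences of the 9 enzymes stayed on the same side of the threshold, 26 no longer passed, 11 newly passed and 0 reversed while called. The 611 include differences that passed in neither fit and changed sign. One was SZ minus IDZ of Ugcg, at -0.04 in the main fit and 0.20 without SZ replicate 4. The counts of enzymes at 2-fold or more held within 1.5 times throughout. Between SZ and IDZ, 6290 clusters were called, 10484 with array quality weights (SZ replicate 4 weighed 0.119, the others 0.907 to 1.82), 4102 with the fixed replicate block for animals, 390 against 2-fold, and 4929 to 11367 with an array left out (11367 without SZ replicate 4). Between IDZ and RZ, 1840 were called, then 5351 with weights, 1170 with the block, 4146 with the 2 zones alone, 61 against 2-fold and 1097 to 3925 with an array left out. Between SZ and RZ, 5773 were called, and 577 against 2-fold. The 4 enzymes called between SZ and IDZ became 2 with the block, the 2 zones alone, plain one-way contrasts or the 2-fold test, and 2 to 4 with an array left out. They became 5 when the arrays were quantile normalized again and 3 with median centring. The 2 between IDZ and RZ became 4 with weights, 3 when quantile normalized again or without SZ replicate 4, and 1 against 2-fold. The 3 between SZ and RZ became 5 with weights and 3 to 5 with an array left out (5 without SZ replicate 4). They became 4 when quantile normalized again or centred on the 75th percentile, and 2 against 2-fold. Of the other pathway genes, the 8 higher in IDZ than in SZ became 5 with the block or the 2 zones alone, 0 against 2-fold and 5 to 10 with an array left out, and the 18 higher in SZ became 3 against 2-fold. The 4 higher in IDZ than in RZ became 2 with median centring or the block, 0 against 2-fold and 2 to 4 with an array left out. The 4 higher in RZ than in IDZ became 7 with weights, 2 with one-way contrasts, 0 against 2-fold and 2 to 5 with an array left out. The 17 higher in SZ than in RZ became 2 and the 7 higher in RZ became 1 against 2-fold. The replicate block changed no call of the enzymes other than Sgms1 and Asah1. The test against 2-fold is stricter by construction, and the cause of the other shifts was not tested. Centring on the 75th percentile put the median cluster at -0.13 for SZ minus IDZ, against -0.08 as deposited.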
